A study of Mus musculus with 3 samples.

Results

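The genes described here encode the ubiquitin-conjugating (E2) enzymes and the ubiquitin-specific proteases of the mouse. They were taken by name: every protein-coding gene of the GENCODE M21 annotation outside chromosome Y whose symbol starts with Ube2, or is Usp followed by a digit. The rule gave 92 of 21768 protein-coding genes, 37 Ube2 genes and 55 Usp genes. Full-length transcripts were read on PacBio long-read sequencing cells (Iso-Seq) from 3 libraries, 1 per condition. The conditions were naive CD4+ T cells, undivided CD4+ T cells after 48 h of activation, and CD4+ T cells with 2 divisions after the same 48 h. All cells came from spleens and lymph nodes of wild-type male C57BL/6N mice aged 6 to 10 weeks. Naive cells were purified by removal of the other cells and taken before culture. The activated cells were stimulated in culture through CD3 and CD28, and were sorted by the dilution of a division dye, CellTrace Violet. How many mice went into a library is not given in the sources used here. The files give the exon positions of each transcript model, called an isoform from here on, with no read counts. A gene is therefore seen or not seen, and the number of isoforms is no measure of its RNA level. With 1 library per condition no test between conditions is possible. Intervals are exact Clopper-Pearson intervals at 95% and cover counting error only, since isoforms of 1 gene are not independent.

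Ubiquitin is attached to proteins by a cascade. An activating enzyme (E1) loads it onto an E2, and the E2 acts with a ubiquitin ligase (E3) that picks the target. The chain that an E2 builds decides much of what follows, from degradation by the proteasome to the assembly of signalling complexes. Ubiquitin-specific proteases reverse the step by cutting ubiquitin off proteins or chains apart. In T cells the cascade is known for its part in signalling from the T cell receptor to NF-κB, and in the cell cycle that follows activation. A few genes carry the names without the activity: Ube2v1 and Ube2v2 lack the catalytic cysteine, Ube2cbp encodes a protein named for binding Ube2c, Usp39 is a splicing factor, and Usp6nl is not a protease.

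The libraries held 10527 naive isoforms, 12602 in undivided cells and 11109 in cells with 2 divisions, of which 9318, 11970 and 10522 fell in protein-coding genes. Both activated libraries carry the label of 1 sequencing cell and the naive library that of a different cell, so sequencing cell and activation cannot be told apart. Of 8 marker genes of CD4 T cells, 8 were seen in naive cells, 7 in undivided cells and 7 in cells with 2 divisions. Of 6 B cell markers, 4 were seen in naive cells with 8 isoforms in all, and only Cd74 in the activated libraries, with 1 isoform each. Of 4 markers of CD8 T and NK cells, Cd8b1 had 1 isoform in naive and 1 in undivided cells, and Klrb1c had 1 in naive cells. Of the 4 myeloid markers, Lyz2 had 1 isoform in naive cells and none of the 4 was seen after activation.

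More than 1 in every 3 of the 92 genes was seen in each library. There were 34 genes in naive cells (37.0%, interval 27.1 to 47.7), 42 in undivided cells (45.7%, 35.2 to 56.4) and 41 in cells with 2 divisions (44.6%, 34.2 to 55.3). Among all protein-coding genes the shares were 21.2%, 25.1% and 23.2%. The Ube2 genes and the Usp genes did not run in parallel. Of the 37 Ube2 genes, 15 were seen in naive cells, 21 in undivided cells and 23 in cells with 2 divisions. Of the 55 Usp genes, 19 were seen in naive cells, 21 in undivided cells and 18 in cells with 2 divisions. The intervals of the 3 libraries overlapped for the Ube2 genes and for the Usp genes, as the plot of shares seen shows.

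**Figure D1:**
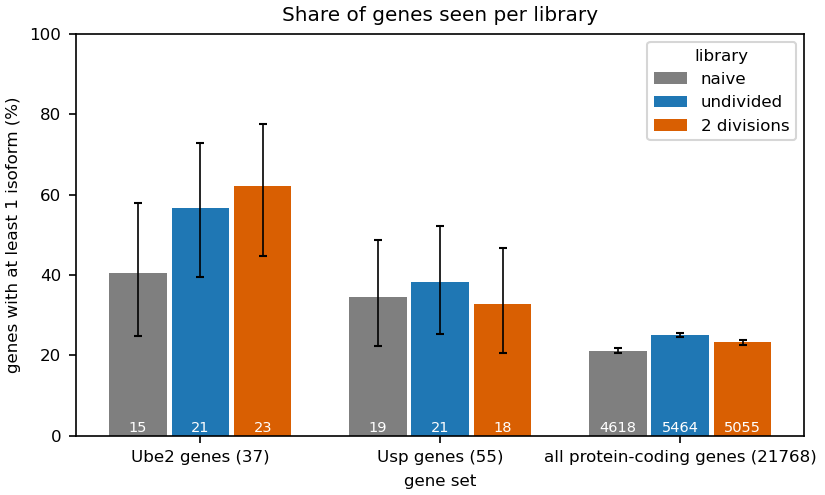
Share of genes with at least 1 isoform (%, bars) in each library for the Ube2 genes, the Usp genes and all protein-coding genes; black lines are exact 95% intervals for counting error, and the white number is the number of genes seen. The Ube2 bars stand at 15, 21 and 23 of 37 genes, the Usp bars at 19, 21 and 18 of 55.

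The genes gave 69 naive isoforms, 92 in undivided cells and 90 in cells with 2 divisions. Per seen gene that was 2.03, 2.19 and 2.20 isoforms, against 2.02, 2.19 and 2.08 for all protein-coding genes. The Ube2 genes reached 2.33, 2.29 and 2.26 isoforms per seen gene, and the Usp genes 1.79, 2.10 and 2.11. Isoforms were spread unevenly: of the genes seen, 17 of 34 in the naive library, 20 of 42 in undivided cells and 20 of 41 in cells with 2 divisions had 1 isoform only. Among the most diverse genes were Ube2d3 with 33 isoforms over the 3 libraries, Usp16 with 13, Ube2d2a with 12, Ube2l3, Usp14 and Usp15 with 10 each, Ube2b with 9, Usp10 with 8 and Usp19 with 7.

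**Figure D2:**
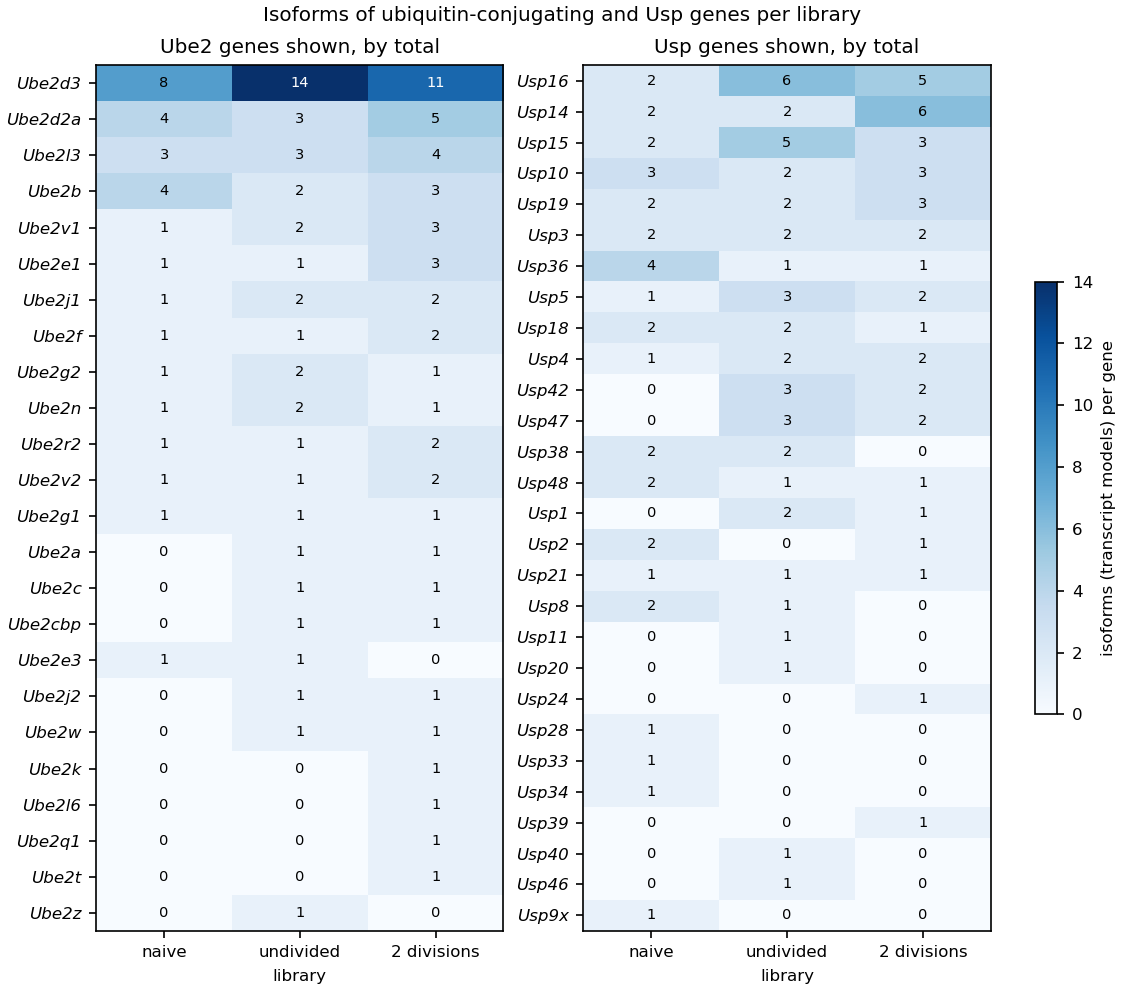
Number of isoforms (colour and printed number) of the Ube2 and Usp genes shown, each seen in at least 1 library, by library from naive to 2 divisions; genes run down by their total. Ube2d3 stands out with 8, 14 and 11 isoforms, and 0 marks a gene not seen in that library.

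Over the 3 libraries 53 genes were seen, 25 Ube2 genes and 28 Usp genes, and 26 of them in every library. Of the 26, 14 were Ube2 genes. They include Ube2d2a, Ube2d3 and Ube2e1, which work with many ligases, and the pair of Ube2n with its cofactors Ube2v1 and Ube2v2, which builds K63-linked chains. They also include Ube2f, an E2 of NEDD8, Ube2l3, which serves HECT and RBR ligases, and Ube2g1, Ube2g2 and Ube2j1, which act in the degradation of proteins from the endoplasmic reticulum. Ube2b, which acts on the replication clamp after DNA damage, and Ube2r2, a partner of cullin ligases, are also among them. The 12 Usp genes seen in every library were Usp3 and Usp16, which act on histone H2A, Usp5 and Usp14, which act on free chains and at the proteasome, Usp18, the ISG15 protease, the nucleolar Usp36, the paralogs Usp4 and Usp15, and Usp10, Usp19, Usp21 and Usp48.

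The 39 genes seen in no library were Ube2d1, Ube2d2b, Ube2dnl1, Ube2dnl2, Ube2e2, Ube2h, Ube2m, Ube2o, Ube2q2, Ube2ql1, Ube2s and Ube2u, and, of the Usp genes, Usp6nl, Usp7, Usp12, Usp13, Usp17la, Usp17lb, Usp17lc, Usp17ld, Usp17le, Usp22, Usp25, Usp26, Usp27x, Usp29, Usp30, Usp31, Usp32, Usp35, Usp37, Usp43, Usp44, Usp45, Usp49, Usp50, Usp51, Usp53 and Usp54. Usp7, a protease of the p53 regulator Mdm2, Usp22 of the SAGA complex and Ube2s, which lengthens chains on the anaphase-promoting complex, are among them. At this depth a gene with no isoform cannot be called silent. The genes seen and not seen were compared for length. The longest annotated coding sequence had a median of 1266 nt in the 53 genes seen and of 1635 nt in the 39 not seen. Among the Usp genes the medians ran the other way, 2824.5 nt in the 28 seen and 2439 nt in the 27 not seen. Of the 20 Usp genes with a coding sequence of 3000 nt or more, 12 were seen (interval 36.1 to 80.9%), and of all 2357 protein-coding genes of that length 29.9% were. The longest read model was that of Usp9x, a protease of endosomal and signalling proteins, in naive cells. Its 46 exons and 9594 nt held the whole coding sequence of 7662 nt (2554 residues).

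The first comparison sets the undivided cells after 48 h of activation against naive cells. The paper describes its undivided cells as heterogeneous, with some that had not induced an early activation marker. Activation and entry into the cell cycle can therefore not be told apart in this pair. In undivided cells 13 genes were seen that were not seen in naive cells, and 5 were seen in naive cells alone of the pair. The background over all protein-coding genes was 7.69% seen in undivided cells alone and 3.81% in naive cells alone. Since many of those genes were seen in neither library, the same counts were also set against the genes seen in either. The 13 genes were 27.7% of 47 (interval 15.6 to 42.6) and the 5 genes 10.6% (3.55 to 23.1), against 26.6% and 13.2% of the 6293 protein-coding genes seen in either library. Both shares lay near the background. The 13 genes were Ube2a, Ube2c, Ube2cbp, Ube2j2, Ube2w, Ube2z, Usp1, Usp11, Usp20, Usp40, Usp42, Usp46 and Usp47. Usp20 was seen only as 1 unspliced model of 1858 nt, assigned by exonic overlap, with 16 A in the 20 nt after its end. Ube2c starts chains on the anaphase-promoting complex in mitosis, and Usp1 with its partner Wdr48 removes ubiquitin from the replication clamp and from Fancd2. The 5 genes seen in naive cells were Usp2, Usp28, Usp33, Usp34 and Usp9x, all Usp genes. The naive isoforms of Usp2 ended before 18 and 20 A in 20 nt. That of Usp34 stopped in a coding exon before 13 A in 20 nt. No Ube2 gene was seen in naive cells and not in undivided cells, of 21 seen in either. The naive library is also the one with B cell and other foreign markers given above, and their part in these 5 genes was not tested.

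In cells with 2 divisions, 14 genes were seen that were not seen in naive cells, where the background was 6.73% of all protein-coding genes, and 7 were seen in naive cells alone of the pair, where it was 4.73%. Of the 48 genes seen in either library these were 29.2% (17.0 to 44.1) and 14.6% (6.07 to 27.8), against 24.1% and 16.9% of 6084 protein-coding genes. For the Ube2 genes the counts were 9 and 1 of 24 seen in either, and for the Usp genes 5 and 6 of 24. Ube2a, Ube2c, Ube2cbp, Ube2j2, Ube2w, Usp1, Usp42 and Usp47 were seen in both activated libraries and not in naive cells. Ube2k, Ube2l6, Ube2q1, Ube2t, Usp24 and Usp39 were seen only in cells with 2 divisions, each with 1 isoform. Ube2t is the E2 of the Fanconi anaemia pathway of DNA repair, Ube2k an E2 that builds K48-linked chains, and Ube2l6 the E2 of ISG15. The gene alone to naive cells among the Ube2 genes of this pair was Ube2e3.

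Between the activated libraries 7 genes were seen in cells with 2 divisions and not in undivided cells, and 8 the other way. The background was 3.17% and 5.05% of all protein-coding genes. Of 49 genes seen in either library the shares were 14.3% (5.94 to 27.2) and 16.3% (7.32 to 29.7), against 11.2% and 17.9% of 6154 protein-coding genes. Ube2e3, Ube2z, Usp8, Usp11, Usp20, Usp38, Usp40 and Usp46 were the genes of undivided cells, Usp20 by its unspliced model alone. Usp8, a protease of endosomal sorting, had 2 naive isoforms, 1 in undivided cells and none in cells with 2 divisions, and Usp38 had 2, 2 and none. Most of these differences rest on 1 isoform: with at least 2 isoforms in the library where the gene was seen, 3 of the 13 genes of undivided cells against naive cells were left (Usp1, Usp42 and Usp47), and 2 of the 14 genes of cells with 2 divisions (Usp42 and Usp47). Usp1 was seen only as models of 1 exon. Without ends followed by at least 12 A in 20 nt, Usp42 kept 1 isoform in either activated library. Without pieces of longer models, Usp47 kept 1 in cells with 2 divisions. In undivided cells Usp47 kept 3 either way.

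Isoform numbers differed by at least 3 in 8 genes. Against naive cells, undivided cells had at least 3 isoforms more of 5 genes and at least 3 fewer of 1, with a background of 2.24% and 1.09%. Cells with 2 divisions had at least 3 more of 3 genes and at least 3 fewer of 2, with a background of 1.85% and 1.25%. Cells with 2 divisions against undivided cells gave 1 gene with at least 3 more and 2 with at least 3 fewer, with a background of 0.464% and 1.02%. As shares of the genes seen in either library, the first pair gave 10.6% more and 2.13% fewer, against 7.74% and 3.77% of all protein-coding genes. The second pair gave 6.25% and 4.17%, against 6.62% and 4.49%, and the third 2.04% and 4.08%, against 1.64% and 3.59%. Without pieces of longer models, Ube2d3 and Usp47 kept at least 3 isoforms more in undivided cells than in naive cells. Usp14 kept at least 3 more in cells with 2 divisions than in either other library. Usp15, Usp16, Usp36 and Usp42 then no longer differed by 3. The Usp14 difference did not hold without ends followed by at least 12 A in 20 nt. Its isoforms then numbered 2 in naive cells, 2 in undivided cells and 3 in cells with 2 divisions. Ube2d3 and Usp47 kept all their isoforms under that rule. The 8 genes include Ube2d3, Usp14, Usp15, Usp16, Usp36, Usp42 and Usp47, which are described in turn with the transcripts behind the numbers.

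Coordinates are those of GRCm38. Ube2d3 (chr3:135438149-135468198, + strand) encodes an E2 of the Ube2d family, which works with a broad set of ligases. It had 8 naive isoforms, 14 in undivided cells and 11 in cells with 2 divisions, the highest number among the 92 genes in each library. All but the isoforms that kept an intron held the same coding sequence of 441 nt (147 residues), so the isoforms differed outside the code. Leaving out the models that were a piece of a longer one, 8, 11 and 10 isoforms remained, and their first introns started at 5 donors, all annotated. The donor furthest downstream was used by 5 naive isoforms, 4 in undivided cells and 4 in cells with 2 divisions. In 1 isoform of naive cells and 1 of undivided cells an intron of 3420 nt was kept.

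The other source of variety was the 3' end. All 33 isoforms of Ube2d3 shared the start of the terminal exon, and their last bases formed 6 sites, counting ends within 24 nt of each other as 1 site. The site 864 nt into the exon was used by 4 naive isoforms, 6 in undivided cells and 5 in cells with 2 divisions. The site at 634 nt was found with 3 isoforms in undivided cells and 1 in cells with 2 divisions and with none in naive cells, whereas the site at 3004 nt was found with 1 isoform in naive cells only. The last 30 bases before each site are shown because each site carries a poly(A) signal of its own, given in capitals (AATAAA, or ATTAAA where that is lacking, searched on the transcript strand in the 50 nt before the end).
Ube2d3, 634 nt, chr3:135465799-135465828: cAATAAAggaatgacctgttcttgttctac
Ube2d3, 798 nt, chr3:135465963-135465992: cactgAATAAAtgatgcgagttgtcaatgg
Ube2d3, 864 nt, chr3:135466029-135466058: ttatttttcttcAATAAAgttgcataaacc
Ube2d3, 1330 nt, chr3:135466495-135466524: ttacaaAATAAAgtactgttttggtgtggg
Ube2d3, 1479 nt, chr3:135466644-135466673: cttaacatgaatgAATAAAaaagtcaatgc
Ube2d3, 3004 nt, chr3:135468169-135468198: tgttaccATTAAAgtctgtgtttaaacaca
AATAAA was found before 55.3% and ATTAAA alone before 12.7% of the 31810 isoform ends of all protein-coding genes. For the Ube2 genes these shares were 63.7% and 9.63% of 135 ends, and for the Usp genes 45.7% and 8.62% of 116. Ube2d3 alone gave 33 of the 135 Ube2 ends, all but 1 of them after AATAAA. A site used by several isoforms counts once for each, so the Ube2 share leans on this gene. None of the 6 sites was followed by an A-rich stretch, defined as at least 12 A in the next 20 nt, at which the primer that reads poly(A) tails could bind within a transcript.

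Ube2d2a, the close relative of Ube2d3, had 4 naive isoforms, 3 in undivided cells and 5 in cells with 2 divisions. Its terminal exon ended at 5 sites between 917 and 1651 nt. The first and the last were found in all 3 libraries, and the sites at 1332 and 1456 nt in cells with 2 divisions only. The mean terminal exon was 1404.33 nt in undivided cells and 1309 nt in cells with 2 divisions, against 1165.25 nt in naive cells. The mean counts every isoform, also those that share an end but differ in start or splicing. The site at 917 nt had 2 naive isoforms and 1 in undivided cells. The site at 1651 nt had 1 naive isoform and 2 in undivided cells. Undivided cells had no site that naive cells lacked.

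Ube2l3 (chr16:17152013-17202649, - strand), an E2 for HECT and RBR ligases, had 3 naive isoforms, 3 in undivided cells and 4 in cells with 2 divisions, all with 4 exons and the whole coding sequence of 462 nt. They differed in the 3' end, at 958, 1304, 1830 and 2267 nt. The sites at 1830 and 2267 nt were found in all 3 libraries, the site at 1304 nt in both activated libraries only, and the site at 958 nt in naive cells and in cells with 2 divisions. The mean terminal exon was 1796.33 nt in undivided cells and 1586.25 nt in cells with 2 divisions, against 1685 nt in naive cells. The bases on each side of the shortest site are shown because they differ from those at the others. No signal was found before it, and the genome that follows it holds 16 A in 20 nt, here in capitals.
Ube2l3, before 958 nt, chr16:17153325-17153354: aagctgtggtagacctggtcatcacagacc
Ube2l3, after 958 nt, chr16:17153305-17153324: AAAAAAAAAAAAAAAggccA
Ube2l3, before 1304 nt, chr16:17152979-17153008: aAATAAAatttgagcttagaatttatcatc
Ube2l3, before 2267 nt, chr16:17152016-17152045: ctgtccttAATAAAaatgttctcagacatt
Without A-rich ends the direction turned for undivided cells, while cells with 2 divisions had the shorter mean both with and without them: the mean was then 1796.33 nt in undivided cells and 1795.67 nt in cells with 2 divisions, against 2048.5 nt in naive cells.

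Ube2v2 (chr16:15552077-15595773, - strand) encodes a cofactor of Ube2n in the making of K63-linked chains. Each isoform had 4 exons and the whole coding sequence of 435 nt, and the libraries differed in the 3' end. The 1 isoform of naive cells ended 2967 nt into the terminal exon, the 1 isoform of undivided cells at 868 nt, and the 2 isoforms of cells with 2 divisions at 868 and 1331 nt. The difference of the means was -2099 nt in undivided cells and -1867.5 nt in cells with 2 divisions, each against naive cells and the largest among the 92 genes. The sequences show AATAAA before the shortest and the longest end and none of the searched signals before the middle one. The signal lies 16 nt before the shortest end and only 4 nt before the longest. Of the 20 nt after the longest end 9 are A, which is not called A-rich, against 5 after the shortest. The longest end lies at -900 nt from an annotated end. Whether it is a poly(A) site was not tested, and the differences from naive cells rest on it.
Ube2v2, 868 nt, chr16:15555676-15555705: aaaatgtaAATAAAatatggaatgtgtctt
Ube2v2, 1331 nt, chr16:15555213-15555242: agctttggttcattacaattgactgaattg
Ube2v2, 2967 nt, chr16:15553577-15553606: acccttgatgactatatgttAATAAAagtt

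Among the other Ube2 genes with several ends, Ube2j1 (chr4:33031416-33052363, + strand), a membrane-bound E2 of the endoplasmic reticulum, ended at 2673 nt in every library. In cells with 2 divisions a further isoform ended at 346 nt, 67 nt after the stop codon, with ATTAAA 22 nt before its end. The mean was therefore 1509.5 nt in cells with 2 divisions, against 2673 nt in naive cells and in undivided cells. Ube2f (chr1:91250304-91290337, + strand), an E2 of NEDD8, ended at 652 nt in naive cells and 653 nt in undivided cells and at 606 and 1215 nt in cells with 2 divisions. Ube2b (chr11:51985497-52000762, - strand) ended at 4 sites in naive cells, 2 in undivided cells and 3 in cells with 2 divisions, 5 sites in all between 425 and 1663 nt. Only the longest of the 5 carries AATAAA. Before 3 of the other 4 a variant of the signal was found, in capitals below, and the fourth, at 905 nt, is followed by 13 A in 20 nt.
Ube2b, 425 nt, chr11:51986386-51986415: atgacagAATATAcacattttgtaaatctg
Ube2b, 551 nt, chr11:51986260-51986289: taaagctgttaaAATACAtaacttcagtgc
Ube2b, 1255 nt, chr11:51985556-51985585: aaaatatacaAGTAAAttctgttgaaccac
Ube2b, 1663 nt, chr11:51985148-51985177: attaaAATAAAaatactaatttattaagct
The variants searched on the transcript strand were AGTAAA and TATAAA and CATAAA and GATAAA and AATATA and AATACA and AATAGA and ACTAAA and AAGAAA and AATGAA. In place of both main signals, 1 of them was found before 19.5% of the 251 ends of the Ube2 and Usp genes and before 12.9% of the ends of all protein-coding genes. No signal of any kind was found before 40 of the 251 ends (15.9%), and 30 of these 40 were followed by an A-rich stretch. Among all protein-coding genes 19.1% of ends had none.

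Of the families shared by undivided and naive cells, 3 of 14 of Usp genes and 6 of 16 of Ube2 genes differed by over 100 nt, a difference that was not tested. Usp14, a protease of the proteasome, had 2 naive isoforms, 2 in undivided cells and 6 in cells with 2 divisions. All libraries held ends near 649 and 811 nt. Cells with 2 divisions had a further end at 2605 nt, found in a model of 16 exons and in a model of 1 exon, which is followed by 15 A in 20 nt. The mean terminal exon was 1183.5 nt in cells with 2 divisions, against 735.5 nt in naive cells and 730 nt in undivided cells. Without A-rich ends it was 709.667 nt in cells with 2 divisions, which is within 100 nt of both.

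Usp47 (chr7:112023504-112111661, + strand), a protease known to act on DNA polymerase beta, was not seen in naive cells and had 3 isoforms in undivided cells and 2 in cells with 2 divisions. Its ends lay at 539 nt in both activated libraries and at 1439 nt in undivided cells only. Usp38 (chr8:80980733-81014928, - strand) ended at 285 and 1164 nt in naive cells and at 601 and 1164 nt in undivided cells. Usp4 (chr9:108347853-108392545, + strand), a paralog of Usp15, ended at 581 nt in all 3 libraries and also at 844 nt in both activated libraries. Its mean was 712.5 nt in each activated library, against 581 nt in naive cells. Usp3 (chr9:66514637-66593142, - strand), which acts on histone H2A, ended at 239 and 720 nt in each of the 3 libraries, and Usp10 (chr8:119910360-119957560, + strand) at 628 and 974 nt in each, the shorter of them before 15 A in 20 nt. The sequences at the ends of Usp47 and Usp38 show which of them carry a signal.
Usp47, 539 nt, chr7:112110454-112110483: tagcttaatAATAAAagctgtgcaaaggcc
Usp47, 1439 nt, chr7:112111354-112111383: tgaacatgccAATAAAacatttgttcatgt
Usp38, 285 nt, chr8:80981696-80981725: atttttcttttcattagacccgaatacttt
Usp38, 601 nt, chr8:80981380-80981409: aattaccccaatATTAAAttcaagtctttg
Usp38, 1164 nt, chr8:80980817-80980846: ATTAAAcattgataacatttttagagttgt

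**Figure D3:**
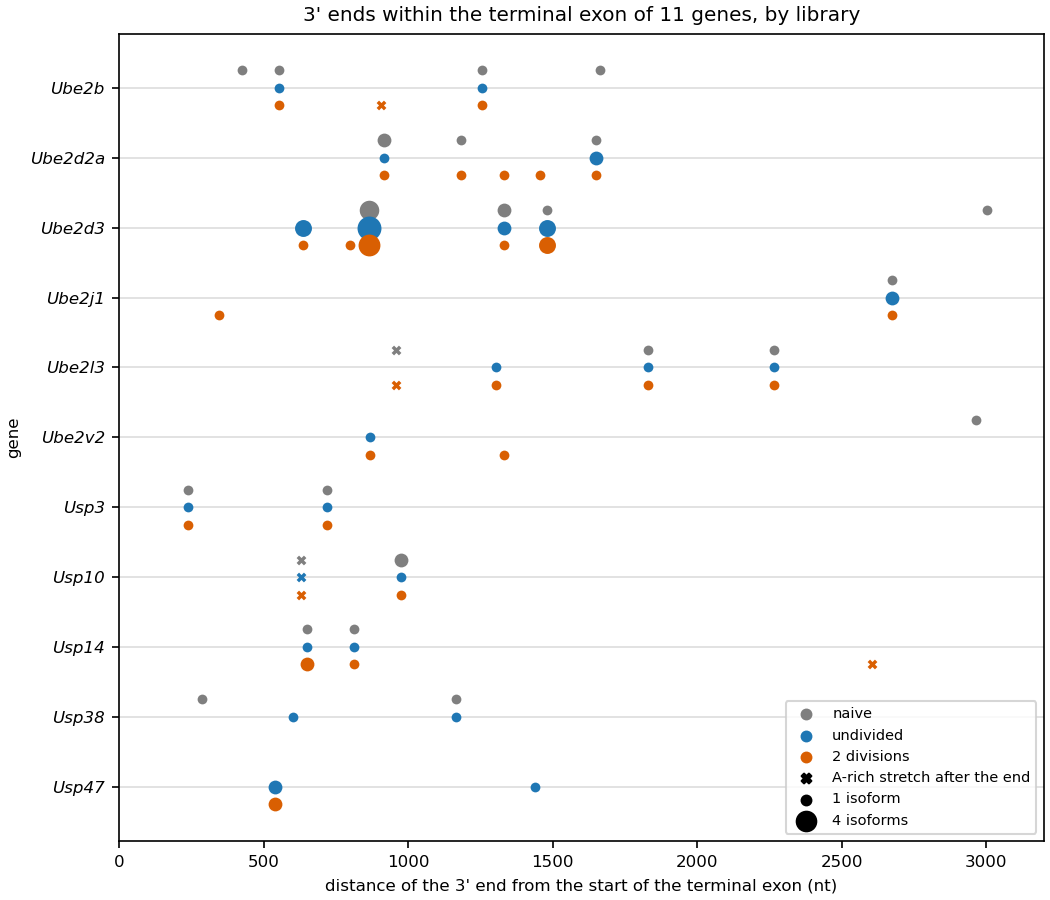
Position of each 3' end (nt from the start of the terminal exon) for 11 genes, in rows by library with naive at the top of each gene; the area of a point follows the number of isoforms, and a cross marks an end before an A-rich stretch. Ube2v2 shows its ends at 868 and 1331 nt in the activated libraries and its end at 2967 nt in naive cells.

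Isoforms that begin their terminal exon at the same base were grouped as a family. In undivided cells 4 of the 30 families shared with naive cells were over 100 nt shorter (13.3%, interval 3.76 to 30.7) and 5 were over 100 nt longer (16.7%, 5.64 to 34.7). The background was 13.0% shorter and 5.67% longer, over 3896 families of all protein-coding genes. In cells with 2 divisions 4 of 29 families were shorter than in naive cells (13.8%, 3.89 to 31.7) and 4 were longer, with a background of 13.5% and 4.79% over 3677 families. Between cells with 2 divisions and undivided cells 4 of 37 were shorter and 4 longer, with a background of 8.41% and 6.95% over 4577 families. The background lay within the interval of the share each time. The families shorter in undivided cells than in naive cells included those of Ube2d3, Ube2v2 and Usp16, and the longer ones included Ube2d2a, Ube2l3, Usp4 and Usp38. The call of Usp16 lay close to the cutoff, at -102 nt. It came from 1 naive isoform at 405 nt, and 1 isoform of undivided cells at each of 201 and 405 nt. Ube2d3, Ube2j1 and Ube2v2 were among those shorter in cells with 2 divisions than in naive cells, and Ube2d2a, Ube2f, Usp4 and Usp14 were longer. Against undivided cells, Ube2j1, Ube2l3 and Usp47 were among those shorter in cells with 2 divisions, and Ube2f, Ube2v2 and Usp14 among those longer. The longer calls of Ube2l3 and Usp14 were lost without A-rich ends. So was the shorter call of Ube2l3 in cells with 2 divisions against undivided cells. Against naive cells Ube2l3 was then called shorter, at -252.167 nt in undivided cells and -252.833 nt in cells with 2 divisions. The families of Ube2f, Ube2j1, Ube2v2, Usp4 and Usp38 had 1 or 2 isoforms per library.

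**Figure D4:**
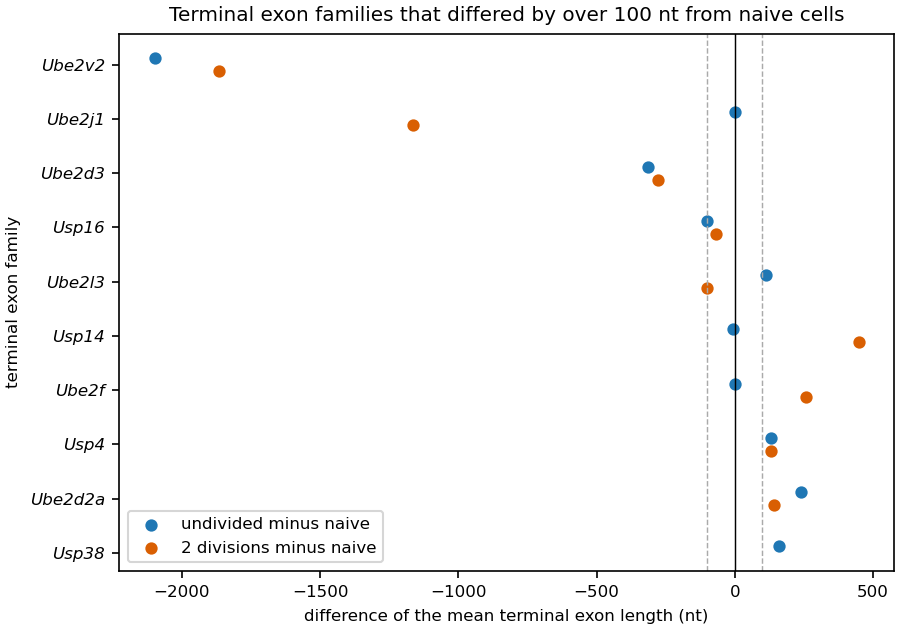
Difference of the mean terminal exon length (nt) between each activated library and naive cells, for the families named in the text that differed by over 100 nt (dashed lines) in at least 1 of the comparisons; points are values of single libraries with no error. Ube2v2 lies at -2099 and -1867.5 nt, and Usp4 at 131.5 nt in both.

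More than 1 end in the same family was found in 10 of 38 families in naive cells (26.3%, interval 13.4 to 43.1), in 14 of 47 in undivided cells (29.8%, 17.3 to 44.9) and in 14 of 47 in cells with 2 divisions (29.8%, 17.3 to 44.9). Over all protein-coding genes the shares were 16.0%, 21.8% and 19.8%, each within the interval of the Ube2 and Usp genes. Of families with at least 2 isoforms, 10 of 13, 14 of 21 and 14 of 20 had several ends, against 48.4%, 52.6% and 51.2% over all protein-coding genes. In 7 families several ends were found in each of the 3 libraries, those of Ube2b, Ube2d2a, Ube2d3, Ube2l3, Usp3, Usp10 and Usp14.

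Some Usp transcripts stopped inside the coding sequence. Of the 251 isoforms, 212 ended in an annotated 3' UTR, 12 past the end of the gene, 19 in a coding exon, 7 in an intron and 1 in another exon. Of the 19 ends in coding exons 14 were followed by an A-rich stretch, against 24 of the 212 ends in a 3' UTR. A-rich stretches followed 26.7% of the ends of Usp genes (31 of 116, interval 18.9 to 35.7) and 10.4% of those of Ube2 genes (14 of 135, 5.79 to 16.8), with 21.9% over all protein-coding genes. All 6 isoforms of Usp36 and all 3 of Usp2 were of this kind, as were those of Ube2a and Ube2r2. Usp16 (chr16:87454703-87483517, + strand), which acts on histone H2A, had 2 naive isoforms, 6 in undivided cells and 5 in cells with 2 divisions. Of these, 1, 3 and 1 ended within the coding part of exon 10, with 13 A in the 20 nt after it. A further isoform in each activated library stopped in a later coding exon before 11 A in 20 nt, which is not called A-rich. In each library 1 isoform of Usp48 ended in a coding exon at an annotated transcript end, before 1 A in 20 nt. Usp36 (chr11:118259651-118290244, - strand) had 4 isoforms in naive cells and 1 in either activated library, and Usp42 (chr5:143710325-143732280, - strand) had none in naive cells, 3 in undivided cells and 2 in cells with 2 divisions. The genomic bases that follow A-rich internal ends of Usp16, Usp36 and Usp42 are shown, with each A in capitals, since a run of A in the transcript can be read like a tail.
Usp16, after chr16:87473168, chr16:87473169-87473188: AAAAAAtAAAgttAAAggtA
Usp36, after chr11:118263794, chr11:118263774-118263793: AAgAAgAAgAAgAAgAAAAg
Usp42, after chr5:143713777, chr5:143713757-143713776: AAgAAAAAgAAgAAAAAgAA
Usp42, after chr5:143714649, chr5:143714629-143714648: AAAAAgAAAAAgAAgtccAA
Without A-rich ends Usp16 had 1, 3 and 4 isoforms, Usp36 none in any library, and Usp42 none, 1 and 1. Usp1 was seen only as models of 1 exon that end in its 3' UTR, 2 in undivided cells and 1 in cells with 2 divisions.

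A whole annotated coding sequence was held by 52 of the 69 isoforms in naive cells (75.4%, interval 63.5 to 84.9), 65 of 92 in undivided cells (70.7%, 60.2 to 79.7) and 70 of 90 in cells with 2 divisions (77.8%, 67.8 to 85.9). Over all protein-coding genes the shares were 58.6%, 61.4% and 62.2%. The Ube2 genes, whose coding sequences are short, reached 88.1% over the 3 libraries (119 of 135) and the Usp genes 58.6% (68 of 116). Of the 53 genes seen, 43 had at least 1 such isoform, 23 Ube2 genes and 20 Usp genes. The chain of introns was annotated in full for 90.4% of the Ube2 isoforms and 58.6% of the Usp isoforms, against 59.6% over all protein-coding genes. Another 22.4% of the Usp isoforms were a part of an annotated chain. An intron absent from the annotation was found in 5 isoforms, all of Usp genes (1.99% of 251, against 9.26% over all protein-coding genes).

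Alternative inclusion of an internal exon was found in 7 genes, at 9 exons, of 37 genes with at least 2 spliced isoforms (18.9%, interval 7.96 to 35.2), against 18.3% of 5140 protein-coding genes. The genes included Ube2j1, Ube2v1, Usp10, Usp15, Usp16 and Usp47. In Usp15 and Usp47 both forms held a whole coding sequence and the exon keeps the reading frame. Usp15 (chr10:123105006-123196995, - strand) includes or skips exon 7 of 22, an exon of 87 nt, giving coding sequences of 2943 nt (981 residues) and 2856 nt (952 residues). The long form was found with 1 complete isoform in each library, and the short form with 1 in undivided cells, 2 in cells with 2 divisions and none in naive cells. Usp15 had 2 naive isoforms, 5 in undivided cells and 3 in cells with 2 divisions, and 2 of the 5 in undivided cells were pieces that lacked the first exons. Usp47 includes or skips exon 12 of 29, an exon of 60 nt, giving 4128 nt (1376 residues) or 4068 nt (1356 residues). Undivided cells had 1 isoform with the exon and 2 without, and cells with 2 divisions had 1 with it.

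Exons of Usp10, Usp15 and Usp16 are no multiple of 3 nt, and no isoform that skipped them held a whole annotated coding sequence. In some this cannot be tied to the skipped exon. The isoform without Usp16 exon 3 also ended within the coding part of exon 10, before 13 A in 20 nt. The Usp15 isoform of undivided cells without exon 6 had 18 exons, where the longest chain has 22. In Usp10 exon 12 of 14, of 145 nt, was included by 2 isoforms in each library and skipped by 1 in naive cells. In Usp16 exon 3 of 18, of 176 nt, was skipped by 1 isoform of undivided cells, and exon 10, of 79 nt, by 1 isoform of cells with 2 divisions. In Usp15 exon 6, of 62 nt, was skipped by 1 isoform of naive cells, and 1 isoform of undivided cells lacked it together with the exon of 87 nt. Ube2j1 exon 7 of 8, of 120 nt, was skipped by 1 of the 2 isoforms of undivided cells, which held no whole annotated coding sequence although the exon keeps the frame. Ube2v1 exon 2 of 5, of 119 nt, was included by 1 isoform of cells with 2 divisions, which held a coding sequence of 519 nt (173 residues) in place of 441 nt (147 residues). The acceptors of 5 of the exons are shown, since it is there that the forms part, with 20 intronic bases in lower case and the first 10 exonic bases in capitals.
Usp15, exon of 87 nt, chr10:123153118-123153147, - strand: acattttcatatttttaaagGTCCCCAGGT
Usp47, exon of 60 nt, chr7:112080152-112080181, + strand: cttatttttattcactccagGTAGAGATGG
Usp10, exon of 145 nt, chr8:119954769-119954798, + strand: ccctggctactctgtcccagGTTGAGGTGA
Ube2j1, exon of 120 nt, chr4:33045060-33045089, + strand: tgggtgtatcttatttatagGCCGAAGTCA
Ube2v1, exon of 119 nt, chr2:167629279-167629308, - strand: ctgttgtaattttggcgcagGTCTCAGAGA

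**Figure D5:**
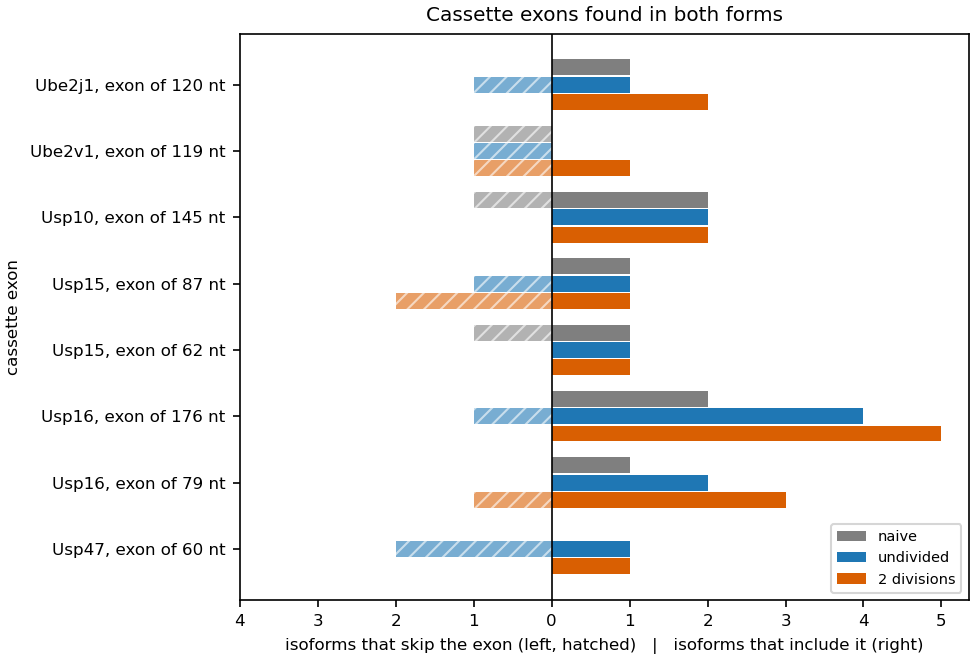
Number of isoforms per library that skip (left, hatched) or include (right, filled) each of 8 cassette exons, with naive at the top of each row of bars. Each exon is counted between the neighbours most isoforms share, where the Usp15 exon of 87 nt is skipped by 1 isoform of undivided cells, 2 of cells with 2 divisions and none of naive cells; no bar on a side means no isoform.

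Smaller shifts at splice sites added to this variety. Within 100 nt of each other, 10 pairs of sites were found in 7 genes, and 7 of the pairs were acceptors. Of these 7, 4 lay 3 nt apart (57.1%, interval 18.4 to 90.1), against 172 of 716 acceptor pairs over all protein-coding genes. All 4 were in Usp genes, in Usp10, Usp19 and Usp48 with a pair each and a further pair in Usp48. At such places AG ends 2 consecutive triplets, capitals in the windows below (all on the + strand), and use of the second removes 3 nt.
Usp10, chr8:119941093-119941122: tggtcatttcttctCAGCAGgacaggagca
Usp19, chr9:108493544-108493573: tgttatctctttggCAGAAGaaacctctgg
Usp48, chr4:137615696-137615725: taatttctttttccCAGCAGaaccttctaa
Usp48, chr4:137625140-137625169: ctctttcttttccaTAGCAGtgatggattt
In Usp10 the upstream acceptor was used by 2 isoforms in each library, and the downstream acceptor by 1 in naive cells and 1 in cells with 2 divisions. In Usp48, known as a protease of histone H2A, the first pair was used at the downstream acceptor in naive cells and at the upstream acceptor in both activated libraries, with 1 isoform each. The second pair did not follow the first. It was used downstream in naive cells and in cells with 2 divisions and upstream in undivided cells, again with 1 isoform each. The Usp5 isoforms, from the protease of free ubiquitin chains (chr6:124815019-124829484, - strand), differed by 69 nt at a donor, with 835 residues in naive cells and both 835 and 858 residues in cells with 2 divisions. Ube2e1 had 1 isoform of cells with 2 divisions with an acceptor 96 nt further in.

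Usp19, a protease known in forms with and without a membrane anchor at the C terminus, differed in its last exon. The annotated last exon, read to 455, 478 or 490 nt, was used by 2 naive isoforms, 1 in undivided cells and 2 in cells with 2 divisions. An upstream last exon of 504 nt, which ends at an annotated transcript end with AATAAA 16 nt before it, was used by 1 isoform in each activated library and by none in naive cells. These 2 isoforms joined annotated introns in a combination that is not annotated and held no whole annotated coding sequence. In Ube2b, Ube2d2a, Ube2d3, Usp15, Usp16, Usp18 and Usp5 at least 1 isoform kept an intron that others of the gene had removed. For Ube2b and Ube2d2a this was 1 isoform of naive cells, and for Usp5, Usp15 and Usp16 1 isoform of undivided cells each. No isoform of cells with 2 divisions kept such an intron. An intron counted as kept only where an exon of a spliced isoform spanned it whole. The 2 isoforms of cells with 2 divisions that ended in an intron, of Usp10 and Usp14, were therefore not counted. The share over all protein-coding genes was not computed, so these counts have no background.

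By role, the E2 enzymes of K63-linked chains (Ube2n, Ube2v1 and Ube2v2) were seen complete in every library, with 3, 5 and 6 isoforms from naive cells to cells with 2 divisions. Of the 4 E2 genes of DNA damage tolerance and the Fanconi pathway, 1 was seen in naive cells, 3 in undivided cells and 4 in cells with 2 divisions. The 4 genes of degradation from the endoplasmic reticulum were seen with 3, 4 and 4. The D and E families held 14, 19 and 19 isoforms, most of them from Ube2d3. Among the Usp genes, 4 of the 5 of endosome and trafficking (Usp8, Usp9x, Usp10, Usp20 and Usp33) were seen in naive cells, 3 in undivided cells and 1 in cells with 2 divisions. The 3 include Usp20, seen only as 1 unspliced model before an A-rich stretch. Of the 12 genes of histones, transcription and DNA repair 4, 5 and 4 were seen. The lists are small, and their counts are given as they stand.

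Other genes of the cascade were counted in the same way. Of 10 E1 genes, 8 were seen in naive cells, 7 in undivided cells and 8 in cells with 2 divisions, among them Uba1, the main E1 of ubiquitin, with 3, 3 and 4 isoforms and Uba7, the E1 of ISG15, with 4, 5 and 2. Of the 4 ubiquitin genes 3, 4 and 3 were seen. Of 35 annotated deubiquitinase genes outside the Usp names 17, 17 and 14 were seen. Tnfaip3, which encodes the NF-κB brake A20, had no isoform in naive cells and 4 in either activated library. Cyld, a protease of K63-linked and linear chains, had 4 naive isoforms, 2 in undivided cells and none in cells with 2 divisions.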

How the data were processed

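The deposited files hold start and end positions of transcript models on GRCm38, 1 library per file, and no read count. The study's methods describe consensus calling (ccs), removal of primers (lima), a required poly(A) tail with clustering of reads (isoseq3), alignment (pbmm2), collapse into models (isoseq3) and classification (SQANTI3). Subread and minimap2 stand in the submitters' processing notes, as do mm10 and GRCm38 as builds. Models that share all introns but differ in their ends stand apart in the files, so an isoform number counts ends as well as splicing, and a read cut short at its 5' end gives a piece.

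Each model was assigned to the GENCODE M21 gene with the most shared splice sites on the same strand, or by exonic overlap where none was shared. Ends within 24 nt were merged, differences of over 100 nt in mean terminal exon length and of at least 3 isoforms were called, signals were sought in the last 50 nt, and ends followed by at least 12 A in 20 nt were called A-rich. A coding sequence was held whole when its start, stop and coding introns matched an annotated one, and its length leaves out the stop codon. Sequences were read from RefSeq's GRCm38.p6 assembly. Intervals came from scipy 1.17.1 under Python 3.11.15. Assignment, families and cassette exons were tested on simulated models. Named with values were the 10 genes with the most isoforms, those whose number differed by at least 3, those with at least 2 isoforms in 1 library and none in another, those with a cassette exon and those with a changed terminal exon or with several ends in all libraries. The genes, lists and rules were chosen with earlier results of these data known. Other genes are named where a role or a seen class is described. Alternatives in assignment, A-rich ends, pieces and thresholds were run. Values of 1 gene are not reported here on their own, and the totals include it.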

Additional observations from a re-analysis of the deposited data

How the results depend on the processing

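No paired analysis was possible because each condition has 1 library, and for the same reason none could be left out. The numbers of genes seen stayed within 1.5 times under every assignment, A-rich and piece alternative, but with at least 2 isoforms 17 genes were seen in naive cells, 22 in undivided cells and 21 in cells with 2 divisions. With at least 2 isoforms against none, undivided cells against naive cells gave 3 genes and 1 the other way, cells with 2 divisions against naive cells 2 and 2, and cells with 2 divisions against undivided cells 0 and 1.

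With a difference of at least 2 isoforms, 3 genes had fewer in undivided cells than in naive cells, 7 had more and 4 fewer in cells with 2 divisions than in naive cells, and 3 had more and 4 fewer in cells with 2 divisions than in undivided cells. Without pieces of longer models, 2 genes had at least 3 more in undivided cells than in naive cells and 0 fewer, 1 had more and 0 fewer in cells with 2 divisions than in naive cells, and 0 fewer in cells with 2 divisions than in undivided cells. Of terminal exons longer in undivided cells than in naive cells, 1 was left at over 200 nt, 3 by the longest isoform and 3 without A-rich ends. Against naive cells, cells with 2 divisions had 8 shorter at over 50 nt and 2 longer at over 200 nt. Against undivided cells, 2 were shorter without A-rich ends. The longest annotated coding sequence was held by 41 isoforms of undivided cells in place of 65. Counts of families with several ends and of cassette exons stayed within 1.5 times. Depth limits every absence: a gene not seen may have been expressed below it.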
